A study of Mus musculus with 4 samples.

Results

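Nodal, its extracellular inhibitors, the enzymes and matrix protein that handle ligands of its family, and its receptors were followed in mouse embryonic stem cells given retinoic acid. The 9 genes were Nodal, Lefty1, Lefty2, Tdgf1, Ltbp3, Furin, Pcsk6, Acvr1b and Acvr2b. Every probe whose platform symbol was one of these names was taken, which gave 18 of the 45281 probes on the array and found all 9 genes, of 19057 genes with a named probe. RNA came from E14, an established line of mouse embryonic stem cells, grown in serum medium with LIF (leukaemia inhibitory factor, which sustains self-renewal). No genetic change is named in the labels. The array titles call the DMSO arrays wt, a usual short form of wild type, and the other arrays ATRA. The cultures differed in one agent, the vehicle DMSO or ATRA (all-trans retinoic acid), which acted for 2 hours, and each group had 2 single-colour Illumina bead arrays. One label calls the DMSO cells untreated, no source used here states the dose of ATRA, and E14 is a single line.

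NODAL is a secreted ligand of the TGF-beta family. It is made as a precursor that the proprotein convertases FURIN and PACE4 (the product of Pcsk6) cleave, and it signals through the activin receptors ACVR1B and ACVR2B with the co-receptor CRIPTO (the product of Tdgf1), which leads to activation of SMAD2 and SMAD3. LEFTY1 and LEFTY2 are secreted inhibitors that are themselves induced by the pathway and so form a negative feedback loop. In embryonic stem cells the pathway is active under self-renewing conditions, and in the embryo it patterns the epiblast and induces mesendoderm. Retinoic acid is the ligand of the nuclear receptors RAR, and the RefSeq gene table lists Stra3, a name given to genes stimulated by retinoic acid, among the synonyms of Lefty1.

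Deposited intensities had already been made equal in distribution on the 4 arrays, with medians of 99.7 to 99.8, so these values cannot show a shift shared by most probes. A probe counted as detected on an array where its detection p was under 0.05, which corresponded to intensities above 104.4 to 106.3, and it was tested where it was detected on at least 2 of the 4 arrays; 19112 probes were tested. All 9 stem cell marker genes with a probe, among them Pou5f1 and Nanog, were detected on all 4 arrays. Their summed intensity was 44389 to 46043 with DMSO and 43511 to 44017 with ATRA. Of these 9 genes Sox2 and Zfp42 fell, by 0.39 and 0.40 on the log2 scale (limma adjusted p = 0.019 and 0.0041). All 4 mesoderm and streak markers with a probe were detected on no array. The same held for 5 of 9 endoderm, 3 of 5 neural and 4 of 8 fibroblast markers. Detected on all 4 arrays were 2 endoderm markers (Sox7 and Dab2), 1 neural marker (Nes) and 4 fibroblast markers. Those fibroblast markers were Col1a1, Col3a1, Twist1 and Thy1, which read between 106 and 166, and 0 of them passed. Gata6, on the endoderm list, was detected on 3 arrays and rose by 0.75 (limma adjusted p = 0.027), from 100.007 and 107.756 to 130.469 and 116.7. The summed endoderm markers were 940 to 944 with DMSO and 941 to 948 with ATRA. That sum is mostly background, with 5 of the 9 genes detected on no array, so it cannot show whether endoderm signal changed. Within it Dab2 read 161 and 148 with DMSO and 136 and 146 with ATRA, without passing (limma adjusted p = 0.46). Summed trophectoderm markers were higher with ATRA (3151 to 3163 against 2057 to 2140). Most of that difference was Tfap2c, which read 1482 and 1409 with DMSO and 2497 and 2460 with ATRA. Of these 7 genes Tfap2c alone passed the test. Cdx2 and Krt7 were detected on all 4 arrays and did not pass (changes of 0.30 and 0.24), and Elf5, Hand1, Gata3 and Esx1 were detected on no array. The part of any admixed cells in the results was not tested.

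Of the 18 probes, 11 were tested and covered all 9 genes, and 10 of these were detected on every array. The other 7 were further probes for Ltbp3, Furin, Pcsk6 and Acvr1b. They lay between 87.2 and 110.9, under or close to the detection limit; 5 were detected on no array and 2 on a single array, so they say little about their genes. Lefty1, Lefty2, Tdgf1 and Acvr2b had 1 probe each, so for these genes no second probe checks the value. Probes differ in how brightly they read a transcript, so no gene is called more or less abundant than another. Marker sums, which bright probes dominate, and the difference between Lefty1 and Lefty2 are compared only between DMSO and ATRA arrays.

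**Figure D1:**
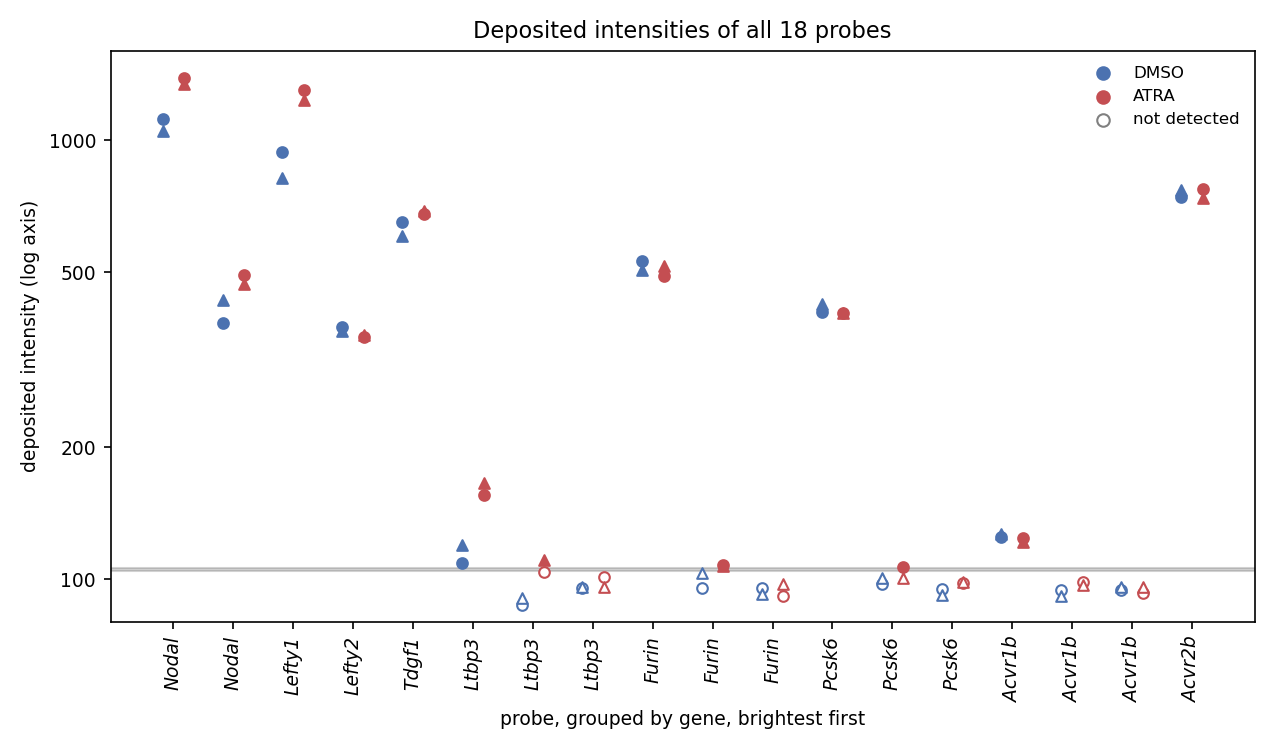
Deposited intensity (log axis) of each of the 18 probes for the 2 DMSO (blue) and 2 ATRA (red) arrays, with circles for replicate 1, triangles for replicate 2 and open symbols where the probe was not detected; the grey band is the detection limit of 104.4 to 106.3. The 7 probes that were not tested lie between 87.2 and 110.9, and 5 of them have open symbols on all arrays.

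With ATRA, 3 of the 9 genes rose: Nodal itself, its feedback inhibitor Lefty1, and Ltbp3, which encodes a latent TGF-beta binding protein of the extracellular matrix. The rises were 1.28-fold, 1.49-fold and 2.29-fold. In RNA from whole cultures, more cells that express a gene and more RNA per cell cannot be told apart. None of the 9 genes fell past the threshold (0 of 11 probes by limma with an adjusted p under 0.05). At an unadjusted p under 0.05, which 11.6% of all tested probes reached, 4 of the 11 probes were higher and 0 lower. The co-receptor, both receptors, both convertases and Lefty2 did not pass. Thus 3 of 11 tested probes rose, where 1.26% of all 19112 tested probes rose and 0.324% fell; the genes had been selected with earlier results of these arrays known, so no weight is put on that contrast. One of the 11, a dim Furin probe, met the detection filter through its ATRA arrays alone. Over the 10 probes detected on every array the median change was 0.07 on the log2 scale, against -0.007 for all 16713 such probes, and over the brightest probe of each gene the median was 0.002. On 5 of these 10 probes both ATRA arrays lay above both DMSO arrays, on 3 both lay below and on 2 the groups overlapped; among all probes detected on every array 20% lay above and 21.5% below. The labels do not state whether replicate arrays came from different cultures, so all p-values here reflect array-to-array spread that may be technical.

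Promoter sequences are shown as a description, and a link between them and the rises was not tested. RefSeq promoter sequences (build GRCm38.p6) matched 7 of the 9 genes in 8 windows; Lefty1 and Lefty2 were not among them. The 250 bases before the start are given 5′ to 3′ for the risen genes Nodal and Ltbp3 and, for contrast, for the receptor gene Acvr2b, whose ratio was 1.00. Nodal lies at chr10:61417722-61417971, Ltbp3 at chr19:5740650-5740899 and Acvr2b at chr9:119401928-119402177, all on the plus strand. Capitals mark matches, on either strand, to the hexamer AGGTCA or one of its variants (AGTTCA as well as GGGTCA or else GGTTCA), which retinoic acid receptors and other nuclear receptors bind in pairs, and to the FOXH1 motif TGTNNATT.
Nodal: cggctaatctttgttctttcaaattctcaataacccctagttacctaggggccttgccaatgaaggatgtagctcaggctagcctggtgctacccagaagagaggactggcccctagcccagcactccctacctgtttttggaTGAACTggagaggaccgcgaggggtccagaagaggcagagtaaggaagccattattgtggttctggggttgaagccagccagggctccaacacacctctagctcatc
Ltbp3: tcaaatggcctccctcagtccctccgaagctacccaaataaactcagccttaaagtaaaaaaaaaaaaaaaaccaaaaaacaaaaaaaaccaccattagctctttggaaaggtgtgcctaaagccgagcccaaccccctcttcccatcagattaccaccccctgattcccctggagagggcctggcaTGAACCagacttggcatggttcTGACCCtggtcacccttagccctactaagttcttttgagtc
Acvr2b: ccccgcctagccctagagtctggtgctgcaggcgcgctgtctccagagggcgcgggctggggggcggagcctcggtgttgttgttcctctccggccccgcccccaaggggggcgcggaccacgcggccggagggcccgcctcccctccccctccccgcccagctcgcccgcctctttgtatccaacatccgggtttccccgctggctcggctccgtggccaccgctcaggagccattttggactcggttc

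The Nodal window held 1 hexamer match, on the minus strand from base -107 to -102, and the Ltbp3 window held 2, from -63 to -58 and from -41 to -36, also on the minus strand. The Acvr2b window held none. Single hexamers are common: 38.6% of all 32851 windows of the same length held at least 1, and 4 of the 8 windows of these genes did. Besides Nodal and Ltbp3 these were the window of Tdgf1 and 1 of the 2 windows of Furin, genes that did not pass, with 1 match each. A direct repeat of 2 hexamers with a spacer of 1, 2 or 5 bases, the arrangement of retinoic acid response elements, was in 0 of the 8 windows, and in 0.164%, 0.174% and 0.088% of all windows. The FOXH1 motif was found in the Tdgf1 window alone, at 2 places, and in 10.9% of all windows. The SMAD motif CAGAC was in 5 of 8 windows, among them that of Ltbp3 at -58 to -54, where it overlaps the hexamer by 1 base, and in 42.2% of all windows. Of the core promoter motifs searched, TATAAA was in 1 of 8 windows and 12.4% of all, and GGGCGG in 5 of 8 and 32.7% of all. The windows differed in base composition. Those of Nodal and Ltbp3 held 3 and 2 CpG dinucleotides and were 53.2% and 47.2% G or C, while those of Acvr2b, Pcsk6 and Acvr1b held 24, 40 and 42 and were 72.8%, 81.2% and 78.8% G or C. The medians of all windows were 6 CpG dinucleotides and 52.4% G or C. Of other genes that did not pass, Tdgf1 had a window with 7 CpG dinucleotides and 42.0% G or C, and the 2 windows of Furin held 6 and 40 and were 50.4% and 83.2% G or C. These matches describe letters within 250 bases; distal enhancers were not analysed here.

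Nodal was read by 2 probes. The brighter one (ILMN_2776165) had intensities of 1117 and 1052 with DMSO and 1388 and 1345 with ATRA. Both ATRA arrays stood above both DMSO arrays. The background-corrected log2 intensity went from 9.97 ± 0.07 to 10.33 ± 0.03 (mean ± SD, n = 2), a rise of 0.36 (SE 0.08) or 1.28-fold (95% interval 1.14 to 1.44; limma adjusted p = 0.021). The dimmer probe (ILMN_3160797) read 384 and 434 with DMSO and 493 and 471 with ATRA, again without overlap. Its change of 0.29 (SE 0.10; 1.22-fold, interval 1.07 to 1.41) did not pass (limma adjusted p = 0.16), so both probes stood higher by similar amounts and only the brighter passed. The call on the brighter probe was lost without ATRA replicate 1 (limma adjusted p = 0.34), without ATRA replicate 2 (0.16) and with eBayes run without its intensity trend (0.26), with changes of 0.33, 0.38 and 0.36. The dimmer probe passed without DMSO replicate 2 (change 0.40, limma adjusted p = 0.0051).

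Lefty1 showed intensities of 941 and 819 with DMSO and 1299 and 1234 with ATRA. The lower ATRA array was still well above the higher DMSO array. Its log2 intensity rose from 9.64 ± 0.15 to 10.22 ± 0.06 (n = 2), by 0.57 (SE 0.09), which is 1.49-fold (interval 1.31 to 1.69; limma adjusted p = 0.00043). This call held with each array left out in turn, with changes of 0.46 to 0.68, and was lost without the intensity trend (limma adjusted p = 0.11).

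Lefty2, the neighbouring paralog, did not pass. It read 375 and 368 with DMSO and 357 and 361 with ATRA, so that both ATRA arrays were slightly lower. The ratio was 0.958 (interval 0.837 to 1.10; limma adjusted p = 0.88). The interval of Lefty2 ended at 1.10, below the 1.31 at which that of Lefty1 began. Taken within each array, the log2 difference between the Lefty1 and Lefty2 probes was 1.54 and 1.35 with DMSO and 2.13 and 2.03 with ATRA, a shift of 0.63. Groups of this size cannot reach significance in an exact permutation test (two-sided p = 0.333, the smallest that the 6 regroupings of 4 arrays allow), so this shift is given as a description. Both genes encode similar proteins and the probe sequences were not used here, so a share of signal from the other paralog was not tested.

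Tdgf1, the co-receptor gene, read 651 and 605 with DMSO and 680.4 and 690.3 with ATRA. The ATRA arrays were higher by a small margin, 1.10-fold (interval 0.974 to 1.25; limma adjusted p = 0.57), and the change did not pass. Its interval leaves room for a rise of up to 1.25-fold.

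**Figure D2:**
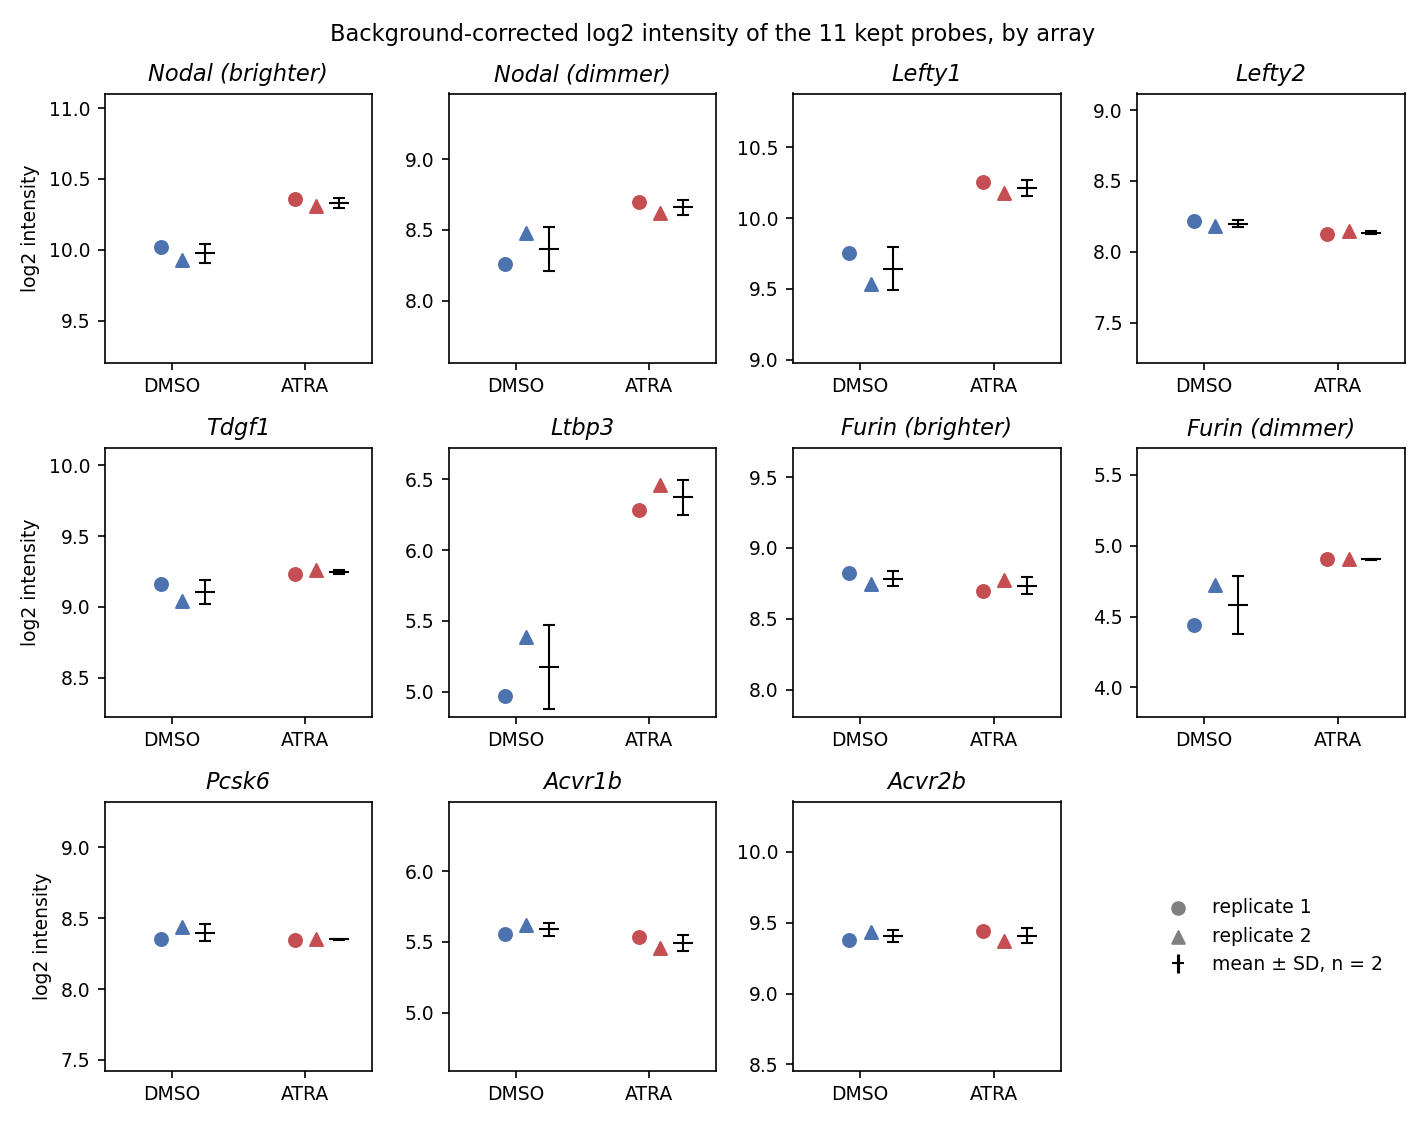
Background-corrected log2 intensity of each of the 11 tested probes for the 2 DMSO (blue) and 2 ATRA (red) arrays, with the mean ± SD (n = 2) beside them; every panel spans the same range on the log2 scale, so that heights of steps can be compared. Steps upward are visible for both Nodal probes, Lefty1, Ltbp3 and the dim Furin probe, which did not pass, while Lefty2, Pcsk6, Acvr2b and the brighter Furin probe lie almost level.

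Ltbp3 had the largest change of the 9 genes in the setting reported. LTBP3 holds latent TGF-beta in the matrix; it is better known as a partner of TGF-beta than of NODAL. Its detected probe (ILMN_2776619) read 109 and 119 with DMSO and 156 and 166 with ATRA. The DMSO values lay just above the detection limit, whereas both ATRA values were clear of it. The log2 intensity rose from 5.18 ± 0.30 to 6.37 ± 0.12 (n = 2), by 1.20 (SE 0.15), which is 2.29-fold (interval 1.85 to 2.84; limma adjusted p = 1.99e-05). The size of this rise depended on how background was handled, because the DMSO signal was close to it. The rise was 1.66-fold with an offset of 50 in place of 16 and 1.41-fold with no background correction, where it was below that of Lefty1 (1.44-fold in that setting). The call held under each of the 12 alternative settings in which the probe was tested. A second probe, designed on another transcript record, read 87.2 and 90.8 with DMSO and 104.1 and 110.9 with ATRA. It was detected on 1 ATRA array and on no DMSO array, so it was not tested in the setting reported. With no filter on dim probes its change was 0.61 (limma adjusted p = 0.018), a size that rests on undetected DMSO values. The remaining Ltbp3 probe was detected on no array, at 95.3 and 96.1 with DMSO and 101.2 and 96.1 with ATRA, and its groups overlapped.

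**Figure D3:**
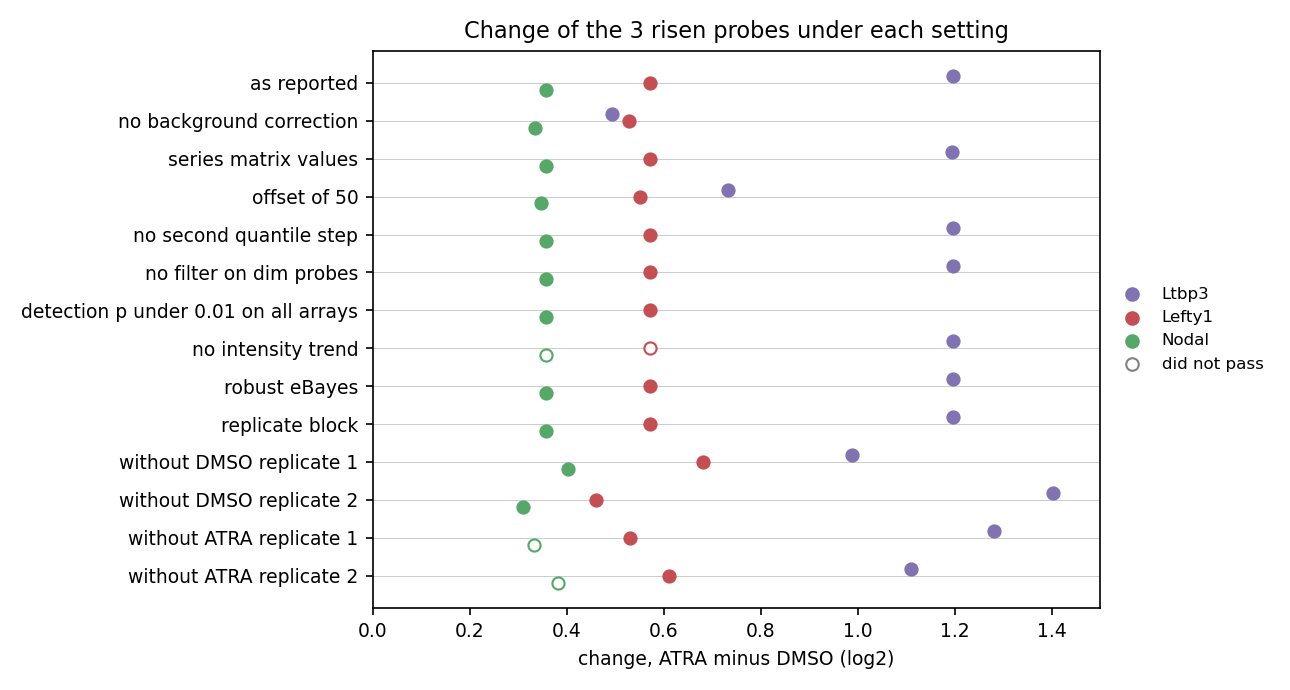
Change with ATRA (log2) of the Ltbp3, Lefty1 and brighter Nodal probes as reported and under each alternative setting, with open symbols where the probe did not pass. All values lie above 0; Ltbp3 drops from 1.20 to 0.49 with no background correction, and it is absent where every array had to detect the probe at a p under 0.01.

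The convertases that mature NODAL and many other precursors did not pass. Furin read 529.8 and 508 with DMSO and 492 and 516 with ATRA by its brightest probe. The groups overlapped, with a ratio of 0.966 (interval 0.848 to 1.10; limma adjusted p = 0.91). A dim Furin probe (ILMN_1252364) was undetected on both DMSO arrays, at 95.6 and 103.4, and barely detected on both ATRA arrays, at 107.5 and 107.4. Set against the detection limit, its ATRA mean was 1.08-fold higher. The fitted ratio of 1.25 had an interval of 0.960 to 1.63, which includes no change, and did not pass (limma adjusted p = 0.54). The remaining Furin probe was detected on no array. Pcsk6 read 405 and 425 with DMSO and 404 and 404 with ATRA, a ratio of 0.968 (interval 0.847 to 1.11; limma adjusted p = 0.91). Its 2 other probes were detected on 1 array and on none.

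The receptor genes did not pass either. Acvr2b, the type II receptor, read 742 and 769.7 with DMSO and 775 and 739 with ATRA. The arrays of the groups interleaved, with a ratio of 1.00 (interval 0.885 to 1.13; limma adjusted p = 0.998). Acvr1b, the type I receptor also called ALK4, was dim, at 125 and 127 with DMSO and 124 and 122 with ATRA. Both ATRA arrays were marginally lower, with a ratio of 0.936 and a wider interval of 0.762 to 1.15 (limma adjusted p = 0.88). Across the 8 probes that did not pass, the intervals ran from a ratio of 0.762 to 1.63, the latter from the dim Furin probe, so smaller changes within those limits were not resolved by these arrays.

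The rest of the pathway was read from 49 further genes in 4 lists, of which 24 were tested by their brightest probe. Of these, 3 rose and 1 fell, beside 1.46% and 0.363% of all 10194 genes tested in that way. All 4 lay among the SMAD effectors and target genes, where 9 genes were tested and the median change was 0.07; this list was also drawn up with earlier results known. In the other lists 0 genes passed by limma, where 2 of 5, 1 of 4 and 0 of 6 had an unadjusted p under 0.05, as did 12.4% of all genes tested. The median changes were -0.11 for 5 other ligands, antagonists and receptors, -0.003 for 4 other convertases, and 0.07 for 6 genes of the latent TGF-beta complex, against -0.004 for all genes tested.

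Pmepa1, a membrane protein gene induced by TGF-beta family signalling whose product restrains that signalling, read 112 and 114 with DMSO and 142 and 144 with ATRA. All ATRA values were above all DMSO values. It rose 1.86-fold (interval 1.52 to 2.28; limma adjusted p = 0.00052), and its second probe rose 1.62-fold (limma adjusted p = 0.016). Like Ltbp3 it was dim with DMSO, and its rise was 1.27-fold with no background correction. The call on the brighter probe held under each of the 12 settings in which it was tested.

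Ski and Skil encode co-repressors that bind SMADs. Ski read 420.3 and 426 with DMSO and 510.5 and 541 with ATRA, and rose 1.30-fold (limma adjusted p = 0.031). Skil rose 1.31-fold by its brightest probe (limma adjusted p = 0.016), from 639 and 646 to 858 and 784. Its second probe, at 1.32-fold, missed the threshold (limma adjusted p = 0.085). Tgif1, a homeodomain co-repressor of SMAD2, was lower: it read 747 and 666 with DMSO and 552 and 560.1 with ATRA, and fell by 0.39 on the log2 scale (limma adjusted p = 0.022). Its other 2 probes had changes of -0.38 and -0.10 and did not pass (limma adjusted p = 0.13 and 0.91). These 3 calls were lost without the intensity trend (limma adjusted p = 0.24, 0.23 and 0.25 for Ski, Skil and Tgif1). Without ATRA replicate 1 they had adjusted p = 0.17, 0.47 and 0.25 by limma. Ski and Tgif1 were also lost without ATRA replicate 2 (limma adjusted p = 0.52 and 0.16) and Tgif1 without DMSO replicate 1 (0.066).

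**Figure D4:**
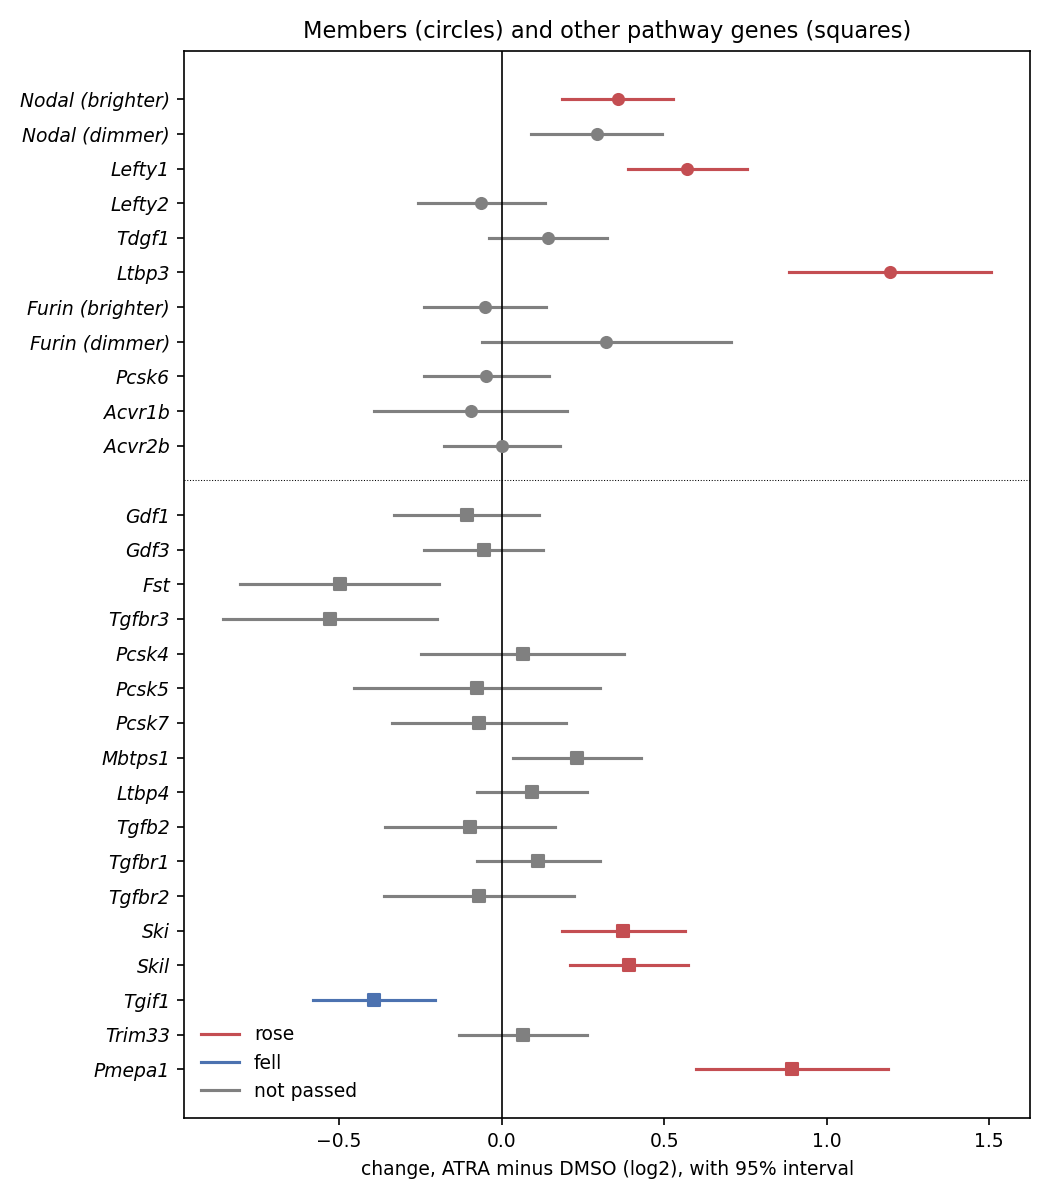
Change with ATRA on the log2 scale with its 95% interval from limma for the 11 tested probes of the 9 genes (circles) and for the 17 other pathway genes that are named (squares); red marks a rise and blue a fall past the threshold. Ltbp3 at 1.20 and Pmepa1 at 0.89 lie farthest to the right, and Tgif1 is the one blue interval.

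Other ligands of the same receptors gave no call. Gdf3, a ligand that also uses CRIPTO, was bright and had a ratio of 0.963 (interval 0.848 to 1.09; limma adjusted p = 0.89). Gdf1, a partner ligand of NODAL, had a ratio of 0.929 (limma adjusted p = 0.79). Fst, the gene of the activin antagonist follistatin, read 129.9 and 127 with DMSO and 113 and 114 with ATRA. Its groups did not overlap, and its ratio of 0.708 (interval 0.573 to 0.876) missed the threshold (limma adjusted p = 0.11). The probe was dim, and the ratio was 0.825 with an offset of 50 and 0.884 with no background correction. Tgfbr3, a co-receptor gene for TGF-beta and inhibin, was similar at 0.694 (interval 0.552 to 0.872; limma adjusted p = 0.11). Tgfbr3 was also dim, with a ratio of 0.817 with an offset of 50 and 0.879 with no background correction. It passed with the replicate number as a block (limma adjusted p = 0.042) and without DMSO replicate 2 (0.047). The remaining 8 genes of this list with a probe were detected on no array, among them the NODAL antagonist genes Cer1 and Dand5, the CRIPTO relative Cfc1 and the receptor genes Acvr1c and Acvr2a.

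In the convertase list Mbtps1, the gene of the site-1 protease, was higher by 0.23 without passing (limma adjusted p = 0.31), while its other 2 probes were at 0.07 and -0.09. Pcsk4, Pcsk5 and Pcsk7 had changes of 0.07, -0.08 and -0.07. In the latent complex list Ltbp4, the bright paralog of Ltbp3, had a ratio of 1.07 (interval 0.949 to 1.20; limma adjusted p = 0.74), with its other probes at 1.04 and 0.995. Tgfb2, Tgfbr1 and Tgfbr2 had ratios of 0.935, 1.08 and 0.953. The interval of Ltbp4 ended at 1.20, below the 1.85 at which that of Ltbp3 began; the difference itself was not tested. Trim33, a regulator of SMAD4, was at 0.07 by its brightest probe (limma adjusted p = 0.87), with its other probes at -0.17, -0.19 and 0.11. Eomes, Mixl1, Gsc and Lhx1, genes that NODAL induces in mesendoderm, and the inhibitory SMAD gene Smad7 were not detected on enough arrays to be tested.

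By distance between log2 profiles centred on their own mean, over 4 arrays, the probes nearest to the Nodal probe were those of Hoxb2, Ets1 and Tnfaip8l2, at 0.024 to 0.029 beside a median of 0.42 over all named probes. Nearest to Lefty1 were Hbegf, Rapgef3 and Ttll3, at 0.060 to 0.088 beside a median of 0.63. Nearest to Ltbp3 were Camk2n1, Pptc7 and Prrt3, at 0.27 beside a median of 1.26. Their own changes were 0.34 to 0.36 for the first set, 0.49 to 0.63 for the second and 1.07 to 1.31 for the third. These genes were picked for likeness to the member, so changes of similar size follow from the choice. Hoxb2, Ets1 and Tnfaip8l2 did not pass (limma adjusted p = 0.39, 0.19 and 0.48). Rapgef3 and Ttll3 did not pass either (limma adjusted p = 0.057 and 0.17), while Hbegf, Camk2n1, Pptc7 and Prrt3 did. With 4 arrays such likeness describes the step and the spread of these arrays and no more.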

How the data were processed

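The authors deposited linear intensity values with a detection p-value per probe and array, per the file headers; the submitters' processing notes name GenomeStudio, with no version. Although the table is called non-normalized, sorted intensities differed by at most 0.228 between arrays, so quantile normalization preceded deposit. The series matrix that the authors deposited equals these intensities less 93.5, on a linear scale and without centring.

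With limma 3.58.1 in R 4.3.3, neqc corrected background by normexp, with negative controls inferred from detection p-values, and used an offset of 16, repeated quantile normalization and took log2. Fold changes are on this log2(value + offset) scale and understate changes of dim probes. The comparison of ATRA with DMSO used lmFit and eBayes (trend on intensity) over the 19112 tested probes (42.2%), with Benjamini-Hochberg adjustment at 0.05; adjusted p-values are from this test unless a setting is named. Intervals are 95%. The 4 arrays limit the precision. For the dim Furin probe, undetected with DMSO, the ratio against the detection limit started from the ATRA mean. That mean was set against, per DMSO array, the higher of the measured value and the lowest detected value.

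Probes were named from the platform annotation; of 34885 with 1 symbol, 34807 matched a RefSeq gene (GRCm38.p6) and 0 changed name, 18 had several symbols and 10378 were unnamed here. The files name no build, so no gene coordinates are given; promoter coordinates are RefSeq's. Members and lists were chosen with earlier results of these data known. Named besides the members were pathway genes past the threshold and up to 4 per list with the highest mean log2 intensity, and 3 genes nearest in profile to each risen member. Alternatives changed the background correction, offset, second quantile step, filter, variance model, replicate block and left out each array. Protein sequences were not used here. Replicate numbers were not used as pairs in the main fit. Deviations of same-numbered arrays correlated with r = -0.003 across probes, and the labels do not state whether such arrays share a culture or batch.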

Additional observations from a re-analysis of the deposited data

How the results depend on the processing

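Over all probes 302 passed the threshold, and 74 without the intensity trend, 492 with the replicate block and 133 to 956 with 1 array left out, lowest without ATRA replicate 1 and highest without DMSO replicate 2. Among the probes of the 9 genes 3 passed, and 1 (Ltbp3) without the trend, 3 with the replicate block and 2 to 4 with 1 array left out. Of the other pathway genes 4 passed, and 1 (Pmepa1) without the trend, 5 with the replicate block and 1 to 5 with 1 array left out: 1 without ATRA replicate 1 and 2 without ATRA replicate 2. The labels do not state whether same-numbered arrays share a culture or batch. Among the 11 tested probes of the 9 genes the block changed no call. With an array left out, the arm with 1 array is assumed to vary like the other. Changes near 0 turned sign when an array was left out: Acvr2b ranged from -0.035 to 0.040, Gdf3 from -0.16 to 0.055, Pcsk7 from -0.28 to 0.14, Tgfbr2 from -0.21 to 0.070, Pcsk4 from -0.054 to 0.18 and Pcsk5 from -0.24 to 0.088, none of which passed. The causes were not tested. Nodal, Lefty1 and Ltbp3 were higher under every alternative in which they were tested. With detection p under 0.01 on all arrays Ltbp3 and Pmepa1 were not tested, and 2 probes of the 9 genes passed. With no filter on dim probes 4 passed, the further one being the second Ltbp3 probe.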
